A study of Mus musculus with 4 samples.

Results

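The genes described here make sterols and fatty acids under the control of the SREBP transcription factors. They were 32 genes listed by their roles: 18 enzymes of cholesterol synthesis, 10 enzymes of fatty acid synthesis, elongation, desaturation and activation, and 4 regulators or carriers. Each was found by its gene symbol on the array, and a gene's probe sets were averaged. Of the 32, 30 were measured by a probe set with a single annotated gene, out of 19938 such genes on the array. Acat2 and Acsl3 were not analysed here in the comparisons below.

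The cells were macrophages grown from bone marrow of C57BL/6N mice in 10 ng/mL M-CSF and harvested on day 9. Stimulation for 48 h with 10 ng/mL interferon-γ gave the phenotype called M1, and 20 ng/mL interleukin-4 gave the phenotype called M2. For 24 h, cells of each phenotype were then given either vehicle or the inflammatory cytokine interleukin-1α (IL-1α) at 10 ng/mL. Each of the 4 combinations of phenotype and treatment was read on 1 Affymetrix array, so no value has a standard deviation, and the labels do not say whether the arrays came from separate cultures or mice. No array of unpolarised macrophages was used here, so a difference between M2 and M1 does not say which phenotype departed from the resting state.

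SREBP-1 and SREBP-2 are made as inactive precursors in the membrane of the endoplasmic reticulum, where the sterol sensor SCAP escorts them and INSIG proteins hold them back while sterols are plentiful. When sterols fall, the precursors move to the Golgi, are cleaved by proteases, and their released ends enter the nucleus and switch on target genes. SREBP-2 acts mostly on cholesterol synthesis and uptake, and SREBP-1 mostly on fatty acid synthesis and desaturation. Macrophages use the pathway to build membranes and to balance the cholesterol they take up. The arrays measured RNA, so neither the cleavage of SREBP nor the amounts of lipid were observed.

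Values are RMA signals on the log2 scale, and differences are in log2 units, so that 1 unit is 2-fold. A comparison took in each gene for which at least 1 compared array reached a floor of 7.62, the median level over all genes and arrays. From a 2-fold difference on, it was taken as higher or lower. The array pair of one phenotype correlated at 0.997 in M1 and 0.996 in M2 over all probe sets, and pairs of arrays across phenotypes at 0.962 to 0.966. All 8 macrophage markers were above the floor on all 4 arrays, with summed linear signals from 57471 to 65306, although in M2 Fcgr1 and Cd14 read over 2-fold lower under both treatments, and Mertk under IL-1α (-0.90 with vehicle and -1.12 with IL-1α). The M1 marker Nos2 read 13.00 and 13.02 in M1 and 6.79 and 7.13 in M2, and the M2 marker Arg1 6.75 and 6.55 in M1 and 12.48 and 12.41 in M2, as the labels would have it. In RNA from a culture, fewer cells expressing a gene and less RNA per cell cannot be told apart.

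M2 macrophages carried more RNA of the sterol and fatty acid genes than M1 macrophages. With vehicle, 23 of the 30 measured members reached 2-fold higher levels in M2 and 0 were lower. Of all 10489 genes compared, 7.03% passed 2-fold toward M2, while 716 genes did so toward M1. Among the 23 were Idi1, Scd1, Fads2 and Stard4, which lay under the floor on both M1 arrays. These genes entered the comparison only through their M2 arrays, so they could not have been called lower. They also count in the member median, the array order and the limma calls that follow. The median difference of the members was 1.55 and that of all genes 0.01. For all 30 members, both M2 arrays read above both M1 arrays, an order that 43.1% of all 10625 genes at the floor showed. An additive limma model with phenotype and treatment as terms called all 30 higher in M2 at a Benjamini-Hochberg adjusted threshold of 0.05, against 33.2% of all genes. That test sets the phenotype difference against the departure from additivity in 4 arrays, with 1 residual degree of freedom per gene and 10.05 borrowed from other genes, and it measures no spread between cultures.

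**Figure D1:**
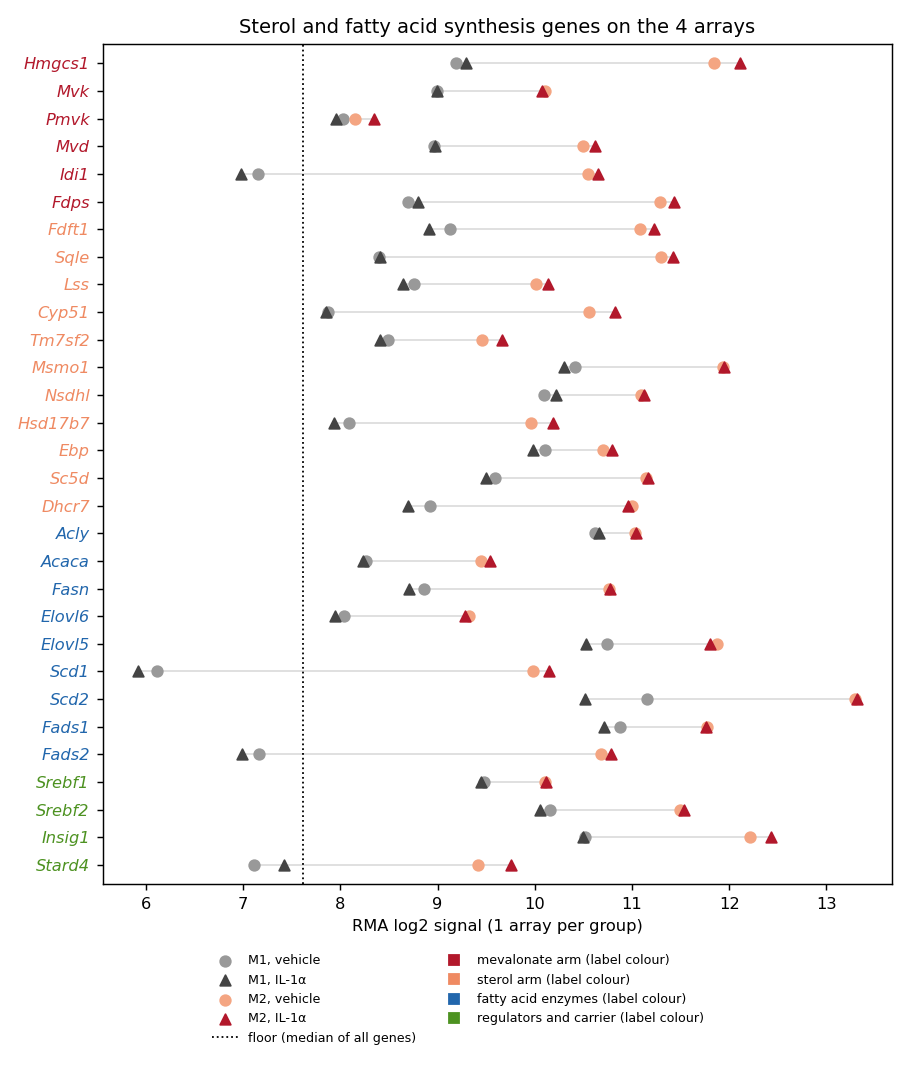
RMA log2 signal (x axis) of the 30 measured members (y axis) on each of the 4 arrays, with vehicle arrays as circles, IL-1α arrays as triangles, M1 in grey and M2 in red tones, and the floor of 7.62 as a dotted line. In every row both M2 symbols lie to the right of both M1 symbols, from a narrow gap for Pmvk to a wide one for Scd1.

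The mevalonate arm turns acetyl-CoA units into farnesyl diphosphate, the branch point to sterols and to protein prenylation. Of its 6 measured enzymes, 5 were at least 2-fold higher in M2 with vehicle, against 7.03% of all genes, and the median of the arm was 2.06. Idi1, counted among the 5, entered only through its M2 arrays and could not have been called lower. Hmgcs1, the HMG-CoA synthase at the entry of the arm, read 9.19 in M1 with vehicle, 9.29 in M1 with IL-1α, 11.84 in M2 with vehicle and 12.11 in M2 with IL-1α. Its phenotype effect in limma was 2.74 ± 0.07 (SE), with an adjusted p of 2.58e-11. The 2 M2 values of Hmgcs1 lay close together, at least 2.55 above either M1 value.

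Idi1, which isomerises isopentenyl diphosphate, had the widest gap of the arm. It read 7.16 and 6.97 in M1 with vehicle and IL-1α, and 10.55 and 10.65 in M2, a vehicle difference of 3.40 (10.5-fold). Both M1 readings of Idi1 lay under the floor, where signal and background are hard to separate, and its fold is therefore uncertain. Its 2 probe sets gave vehicle differences of 3.44 and 3.35. Fdps, the farnesyl diphosphate synthase, read 8.70 and 8.79 in M1 and 11.29 and 11.44 in M2, a 6.00-fold difference with vehicle on readings above the floor.

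The kinases and the decarboxylase between these steps differed less. Mvd, which decarboxylates mevalonate diphosphate, read 8.96 and 8.97 in M1 and 10.49 and 10.62 in M2. Mvk, the mevalonate kinase, read 9.00 and 8.99 in M1 and 10.11 and 10.08 in M2, just past 2-fold with a vehicle difference of 1.11. Pmvk, the phosphomevalonate kinase that follows it, read 8.03 and 7.95 in M1 and 8.15 and 8.35 in M2. At 0.12 with vehicle, Pmvk had the smallest difference of all members. Its limma effect was 0.26 ± 0.10 with an adjusted p of 0.047, and this call did not hold under 5 of the 8 alternative settings in which it was tested, where limma adjusted p ran from 0.054 to 0.17.

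Because most members stood together, their promoter sequences were searched for the letters that SREBP and its partner factors are known to bind. RefSeq (GRCm38.p6) windows of 300 bases, 250 before and 50 after the transcript start, were at hand for 25 of the 32 members, in 30 windows. The sterol regulatory element was searched as TCACNCCAC, on both strands. It stood in 1 of the 30 member windows, that of Hmgcs1, and in 1.24% of all 32851 windows. The match lies on the strand of the gene, from base -137 to base -129 counted from the start, and is the part in capitals in the Hmgcs1 window on chromosome 13, chr13:119690101-119690400, plus strand. This window also holds 4 matches of CCAAT and 3 of GGGCGG, left in lower case.

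Hmgcs1: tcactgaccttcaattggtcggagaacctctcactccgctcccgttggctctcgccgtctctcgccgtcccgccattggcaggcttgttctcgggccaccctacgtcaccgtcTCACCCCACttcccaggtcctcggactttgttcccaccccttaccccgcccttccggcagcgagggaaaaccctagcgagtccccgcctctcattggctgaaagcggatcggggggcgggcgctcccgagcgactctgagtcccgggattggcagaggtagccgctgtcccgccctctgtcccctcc

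The letters TCACGTGA, a palindrome that SREBP-1 can also bind, stood in 0 of the 30 member windows and in 0.974% of all windows. SREBPs are weak activators alone and are known to act beside NF-Y, which binds CCAAT, and Sp1, which binds GGGCGG, so both were searched on both strands as well. CCAAT stood in 73.3% of the member windows (22 of 30) and in 37.4% of all windows, and GGGCGG in 73.3% of the member windows and 35.7% of all. Among sterol enzymes, 14 of 15 genes with a window held CCAAT and 14 of 15 held GGGCGG. Among fatty acid enzymes these counts were 4 of 7 and 3 of 7. Over all genes with a window, 41.1% held CCAAT and 38.2% held GGGCGG, so the GGGCGG share of the fatty acid enzymes (42.9%) was near that of all genes. The member windows were also richer in G and C, with a median of 62.5% against 52.7% over all windows, and the part of base composition in these shares was not tested. A match of these letters is not a bound site, and no match says only that the letters are not in this window.

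For comparison, windows are given for the sterol enzymes with a window that had the largest phenotype effects after Hmgcs1 was set apart, Idi1 (chromosome 13, chr13:8885356-8885655, plus strand) and Cyp51 (chromosome 5, chr5:4104648-4104947, minus strand), and for the fatty acid enzyme with the largest, Fads2 (chromosome 19, chr19:10101454-10101753, minus strand). These 3 were chosen after their values were seen. Capitals mark CCAAT and GGGCGG, or their reverse complements. The Idi1 window holds 3 matches, the Cyp51 window 2 and the Fads2 window 1.
Idi1: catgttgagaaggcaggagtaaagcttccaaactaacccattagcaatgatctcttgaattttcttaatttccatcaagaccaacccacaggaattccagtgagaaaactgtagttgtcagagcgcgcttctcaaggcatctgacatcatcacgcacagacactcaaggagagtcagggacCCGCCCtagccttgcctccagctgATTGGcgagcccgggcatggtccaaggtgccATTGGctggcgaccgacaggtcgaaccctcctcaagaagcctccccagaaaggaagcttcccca
Cyp51: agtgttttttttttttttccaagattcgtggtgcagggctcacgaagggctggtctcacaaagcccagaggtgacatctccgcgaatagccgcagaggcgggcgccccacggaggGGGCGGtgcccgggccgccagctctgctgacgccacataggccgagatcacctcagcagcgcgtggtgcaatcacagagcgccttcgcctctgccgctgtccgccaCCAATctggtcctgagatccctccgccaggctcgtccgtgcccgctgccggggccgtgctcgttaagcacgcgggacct
Fads2: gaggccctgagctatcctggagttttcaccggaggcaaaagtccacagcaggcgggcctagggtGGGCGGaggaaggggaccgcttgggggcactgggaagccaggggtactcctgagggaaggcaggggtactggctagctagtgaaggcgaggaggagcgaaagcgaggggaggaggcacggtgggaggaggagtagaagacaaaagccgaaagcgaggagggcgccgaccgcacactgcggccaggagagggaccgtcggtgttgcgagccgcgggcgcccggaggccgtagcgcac

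The sterol arm leads from farnesyl diphosphate through squalene and lanosterol to cholesterol. All 11 of its measured enzymes were called higher in M2 by limma, against 33.2% of all genes. With vehicle 8 were at least 2-fold higher, against 7.03% of all genes, and the median of the arm was 1.56. Sqle, the squalene epoxidase and a rate-limiting step, read 8.39 and 8.41 in M1 and 11.30 and 11.42 in M2. That is 7.50-fold with vehicle and 8.08-fold with IL-1α, and the limma effect was 2.96 ± 0.08 (adjusted p 2.55e-11). Cyp51, the lanosterol demethylase, read 7.88 and 7.85 in M1 and 10.56 and 10.83 in M2, a 6.43-fold difference with vehicle from readings just above the floor.

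A middle group of the arm differed by 3.66- to 4.24-fold with vehicle. Dhcr7, which carries out the last reduction to cholesterol, read 8.92 and 8.70 in M1 and 11.00 and 10.96 in M2 (4.24-fold). Fdft1, the squalene synthase that commits the pathway to sterols, read 9.13 and 8.91 in M1 and 11.08 and 11.22 in M2 (3.87-fold). Hsd17b7, a ketosterol reductase, read 8.09 and 7.93 in M1 and 9.96 and 10.19 in M2 (3.66-fold). In each of these genes the M2 arrays stood together, well clear of the M1 arrays. Sc5d, the sterol desaturase, and Msmo1, the methyl sterol oxidase, differed by 1.56 and 1.52.

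The smallest gaps of the arm were in Ebp, Tm7sf2, Nsdhl and Lss. Lss, the lanosterol synthase, read 8.76 and 8.64 in M1 and 10.01 and 10.13 in M2, a difference of 1.25 with vehicle. Nsdhl, an enzyme of a demethylation step, read 10.10 and 10.22 in M1 and 11.09 and 11.13 in M2. Its vehicle difference of 0.99 thus fell just short of 2-fold. Tm7sf2, a sterol reductase, was also just short at 0.96 with vehicle, and past 2-fold at 1.25 with IL-1α. Ebp, the sterol isomerase, read 10.11 and 9.98 in M1 and 10.70 and 10.79 in M2, a difference of 0.60. All 4 kept a gap between the phenotypes wider than the difference between the arrays of either phenotype.

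The fatty acid enzymes were higher in M2 as well, and varied more among themselves. Of the 9 measured, 7 were at least 2-fold higher with vehicle, against 7.03% of all genes. The median of the 9 was 1.28, with a range from 0.42 to 3.87. Scd1 and Fads2, counted among the 7, entered only through their M2 arrays and could not have been called lower. Acly, which makes cytosolic acetyl-CoA from citrate, read 10.62 and 10.66 in M1 and 11.03 and 11.04 in M2, the least of the group at 1.33-fold. Acaca, the acetyl-CoA carboxylase, read 8.26 and 8.23 in M1 and 9.44 and 9.54 in M2, and its 2 probe sets gave the same vehicle difference of 1.18. Fasn, the fatty acid synthase, read 8.86 and 8.70 in M1 and 10.77 and 10.78 in M2, a 3.75-fold difference with vehicle. Along this chain from citrate to palmitate the difference thus ran from 0.42 through 1.18 to 1.91.

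Among the desaturases, Scd1 and Fads2 had the widest vehicle gaps of all members, while Scd2 and Fads1 did not. Scd1, a stearoyl-CoA desaturase that makes oleate, read 6.11 and 5.92 in M1 and 9.98 and 10.14 in M2. Its vehicle difference of 3.87 ranked 30 among the 10489 genes compared, and its limma effect was 4.05 ± 0.11 (adjusted p 4.05e-11). Fads2, which starts the desaturation of polyunsaturated fatty acids, read 7.16 and 6.99 in M1 and 10.69 and 10.78 in M2, a difference of 3.53 with rank 41. Both genes were under the floor on both M1 arrays, so their folds and their ranks are uncertain.

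The paralogs of these enzymes were measured above the floor in M1 too. Scd2 read 11.15 in M1 with vehicle, 10.52 in M1 with IL-1α, and 13.30 and 13.31 in M2, where it lay within 2 log2 units of the highest signal on the M2 arrays (14.47). Its vehicle difference was 2.15 (4.42-fold). Fads1, which acts after Fads2, read 10.88 and 10.72 in M1 and 11.77 and 11.76 in M2, a difference of 0.89. The elongases Elovl6 and Elovl5 differed by 1.28 and 1.13 with vehicle. Scd1 and Scd2 share much of their sequence, and cross-hybridisation between them was not tested.

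Among the regulators, Srebf2 differed more than Srebf1 by the probe sets with a single gene. Srebf2, which encodes SREBP-2, read 10.15 and 10.05 in M1 and 11.50 and 11.54 in M2, a vehicle difference of 1.34 (2.54-fold). A further probe set, naming Srebf2 among 4 genes, gave a vehicle difference of 0.05 and was not used in this ranking. Srebf1, which encodes SREBP-1, read 9.47 and 9.44 in M1 and 10.11 and 10.12 in M2, a difference of 0.63, short of 2-fold but called in limma (0.65 ± 0.08, adjusted p 1.24e-05). Insig1, the retention protein and itself a target of SREBPs, read 10.52 and 10.49 in M1 and 12.21 and 12.43 in M2, a 3.24-fold difference. Stard4, a sterol carrier of the cytosol, read 7.11 and 7.42 in M1, both under the floor, and 9.41 and 9.75 in M2.

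Set side by side, sterol and fatty acid enzymes overlapped widely. With vehicle, 13 of 17 sterol enzymes and 7 of 9 fatty acid enzymes passed 2-fold toward M2, and with IL-1α 14 of 17 and 8 of 9. The share over all genes was 7.03% with vehicle and 8.15% with IL-1α. The sterol counts include Idi1, and the fatty acid counts Scd1 and Fads2, all under the floor on both M1 arrays. These genes entered only through M2, so they could not have been called lower. Idi1 and Scd1 also set the upper ends of the ranges given below. The median with vehicle was 1.56 over sterol enzymes and 1.28 over fatty acid enzymes, a gap of 0.28, beside standard deviations over genes of 0.89 and 1.19. The gap was -0.036 when the floor was raised to the 75th percentile, and -0.036 when probe sets naming several genes were used, so its sign depended on the processing. The range of the fatty acid enzymes, from 0.42 to 3.87, enclosed nearly all of the range of the sterol enzymes, from 0.12 to 3.40.

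**Figure D2:**
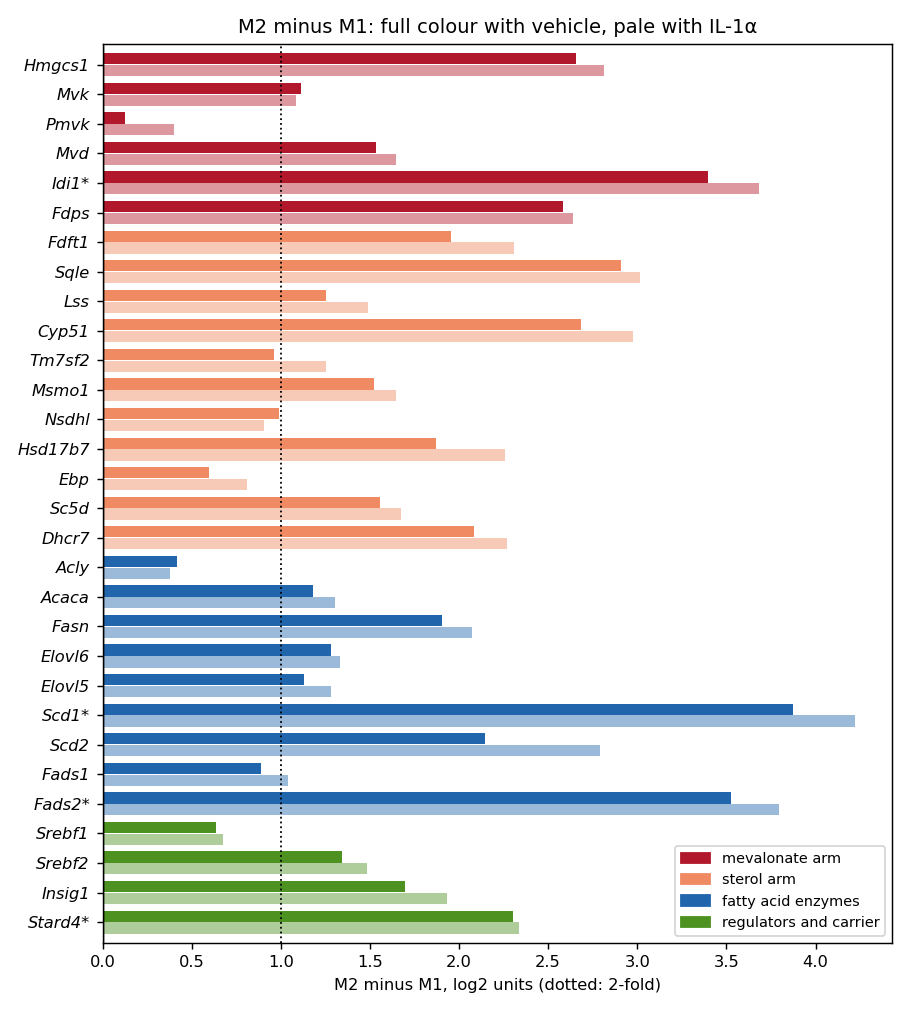
M2 minus M1 in log2 units (x axis) for each measured member (y axis), with full colour for the vehicle arrays, pale colour for the IL-1α arrays, a dotted line at 2-fold and an asterisk where an M1 array read under the floor. All bars point to M2, the longest of each group belonging to Idi1, Sqle, Scd1 and Stard4, and pale bars are the longer ones in 27 of 30 genes.

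The other genes of the pathway, 42 listed by role, were spread to both sides. Of the 33 measured, 29 reached the floor with vehicle, and 2 passed 2-fold toward M2 and 4 toward M1, with a median of 0.06. In limma, 13 of the 29 were called higher in M2 and 10 lower. Of all 10489 genes compared, 7.03% passed 2-fold toward M2 and 716 genes toward M1. Of all 10625 genes in limma, 33.2% were called higher in M2 and 3113 genes lower. These all-gene values also stand beside the calls by role below. The remaining sterol synthesis genes had 0 of 4 past 2-fold and a median of 0.42, led by Erg28 (0.52), a scaffold of sterol demethylation, and Aacs (0.43), which makes acetoacetyl-CoA, with Lbr at 0.42 and Ggps1 at 0.00 below them. Of 8 further fatty acid genes at the floor, limma called 3 higher and 3 lower. Lpin1, a phosphatidate phosphatase, read 8.49 and 8.25 in M1 and 10.50 and 10.40 in M2, a difference of 2.01. Next highest was Slc25a1, the citrate carrier of mitochondria, which read 11.31 and 11.30 in M1 and 11.54 and 11.63 in M2. Me1, the malic enzyme that supplies NADPH, read 9.13 and 9.17 in M1 and 7.66 and 7.97 in M2, and Acss2, which makes acetyl-CoA from acetate, 9.52 and 9.60 in M1 and 8.44 and 8.45 in M2.

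Genes that process or restrain SREBP were mixed, with 0 of 7 past 2-fold with vehicle, a median of -0.07, and 2 called higher and 3 lower in limma. Mbtps1, the protease that makes the first cut of SREBP in the Golgi, was nearly 2-fold higher in M2 at 0.98, followed by Erlin2 at 0.26. The ubiquitin ligase genes Rnf139 and Rnf145 were the lowest, at -0.76 and -0.63. Scap read 10.25 and 10.19 in M1 and 10.18 and 10.21 in M2, and Insig2 9.93 and 9.99 in M1 and 9.94 and 10.07 in M2. For both, the values of the phenotypes overlapped, unlike those of Insig1. Of the sterol uptake and storage genes, Tmem97 was at 0.84, Npc1 at 0.54, Lipa at 0.25 and Npc2 at -0.28, and 0 of the 4 passed 2-fold with vehicle, while limma called 3 higher and 1 lower.

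On the side of LXR, the nuclear receptor that senses oxysterols, drives cholesterol efflux and also induces Srebf1, the genes split. Nr1h3, which encodes LXRα, read 11.96 and 12.00 in M1 and 9.86 and 10.40 in M2, a vehicle difference of -2.09. Ch25h encodes an enzyme that makes an oxysterol known to hold SREBP in the endoplasmic reticulum. This gene read 9.77 and 9.85 in M1 and 8.05 and 8.62 in M2, a difference of -1.73. The efflux transporter genes Abcg1 (1.02) and Abca1 (0.94) were the highest of the group, on the other side. Of 6 measured genes, 1 was at least 2-fold higher in M2 and 2 lower, and limma called 2 higher and 3 lower.

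**Figure D3:**
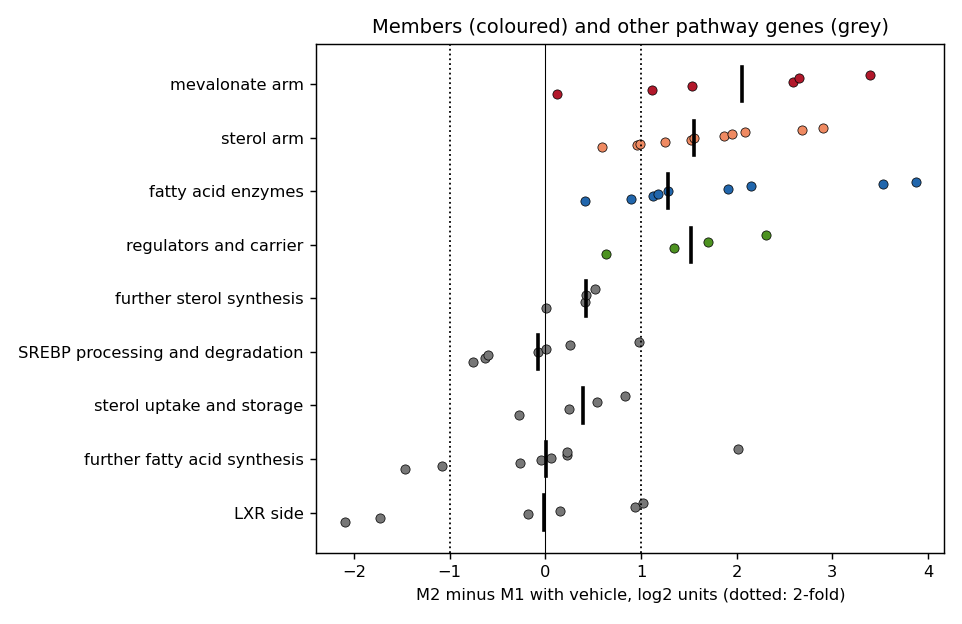
M2 minus M1 with vehicle in log2 units (x axis) for genes that reached the floor, by role (y axis), with members in colour, other pathway genes in grey, a black bar at each group's median and dotted lines at 2-fold in either direction. The 4 member groups have medians from 1.28 to 2.06, and the 5 groups of other pathway genes from -0.07 to 0.42.

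Other genes moved with the same contrast. The share of all genes past 2-fold toward M2 with vehicle was 7.03%. Among the genes counted next, Ccna2, Ccnb2 and Bub1 (proliferation) and Ctsk and Dcstamp (osteoclast) lay under the floor on both M1 arrays. They entered only through their M2 arrays, so they could not have been called lower. Of 5 proliferation genes at the floor, all 5 were at least 2-fold higher in M2 with vehicle (median 2.36), and the summed linear signal of the 6 measured was 1636 and 1583 in M1 and 6990 and 7608 in M2. Of 5 osteoclast markers at the floor, all 5 were at least 2-fold higher in M2, with summed linear signals over 6 markers of 5395 and 5075 in M1 and 25465 and 26098 in M2, while Calcr, a late marker, was under the floor on all 4 arrays. Adipoq, an adipocyte gene, read 6.21 and 6.35 in M1 and 8.50 and 8.53 in M2, whereas the adipocyte genes Plin1 and Lep were under the floor on all 4 arrays and Cidec on 3 of 4. Neutrophil markers summed to 781 and 822 in M1 and 2056 and 1961 in M2, and fibroblast markers to 1587 and 1713 in M1 and 1895 and 2079 in M2. Of the neutrophil markers, Ngp differed most (2.52 with vehicle), and Camp was under the floor on all 4 arrays. Every other neutrophil marker, and Adipoq, reached the floor on the M2 arrays only and could not have been called lower. Dendritic cell markers summed to 1639 and 1353 in M1 and 493 and 478 in M2, but did not all point the same way. With vehicle, Clec9a (-4.35) and Xcr1 (-1.96) were lower in M2 and Zbtb46 (0.48) higher, while Flt3 was under the floor on all 4 arrays. All 4 lymphocyte markers were under the floor. The part of these cells, or of proliferation, in the lipid gene difference was not tested.

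With IL-1α on both sides the difference between phenotypes was of the same kind. Of the 30 members, 25 reached 2-fold higher levels in M2 and 0 were lower, with a member median of 1.66. Of all 10479 genes, 8.15% passed 2-fold toward M2, while 635 genes did so toward M1. Idi1, Scd1, Fads2 and Stard4, again counted among the 25, could not have been called lower here either. Tm7sf2 and Fads1 were the members past 2-fold with IL-1α but not with vehicle. The fold of Scd1 was 14.7 with vehicle and 18.6 with IL-1α, that of Idi1 10.5 and 12.8, and that of Scd2 4.42 and 6.91. Of these 3 genes, Scd2 alone had M1 readings above the floor.

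The study asked whether M1 and M2 macrophages respond differently to IL-1α, and the lipid genes responded little in either. In M1, 0 of 26 members at the floor differed by 2-fold, and no gene of 10012 did. The members' median was -0.09 and that of all genes 0.00, with a standard deviation over all genes of 0.111. Of the 26 members, 20 were below 0 and 6 above, where 49.2% of all genes were above 0. The median was -0.08 over 16 sterol enzymes and -0.16 over 7 fatty acid enzymes, and both stayed below 0 under each of the 3 other scalings of the arrays.

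Scd2 stood apart in M1. It read 11.15 with vehicle and 10.52 with IL-1α, a difference of -0.63 (1.55-fold lower) that ranked 10010 among 10012 genes, the third lowest value. At a 1.5-fold threshold it was the only member counted as lower, where 0.04% of all genes were (4 genes). In M2 the same gene read 13.30 and 13.31. Its difference between the arrays of M1 was -0.62 to -0.65 under the other scalings, and it rests on 1 probe set and 1 array a group. Next lowest were Dhcr7 (-0.23), Fdft1 (-0.22) and Elovl5 (-0.21), and the highest were Nsdhl (0.12) and Hmgcs1 (0.10). Stard4 differed by 0.31, on readings under the floor.

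In M2, 0 of 30 members differed by 2-fold with IL-1α, where 0.35% of all 10284 genes were at least 2-fold higher. The members had a median of 0.10, and 25 of 30 were above 0, but so were 69.3% of all genes, whose median was 0.05. After cyclic loess 17 of 30 members were above 0, and after a further quantile normalization 18. Sterol enzymes had a median of 0.12 with 15 of 17 above 0, and fatty acid enzymes a median of 0.01 with 6 of 9 above 0. Under these scalings the fatty acid median was -0.052 and -0.046, so its direction depended on the scaling, while the sterol median kept its sign (0.07 and 0.05). The members with the largest differences were Stard4 (0.34), Hmgcs1 (0.27), Cyp51 (0.26), Hsd17b7 (0.23) and Insig1 (0.21), at most 1.27-fold.

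The response in M2 minus that in M1 was at least 1 log2 unit in 0 of 30 members, against 0.32% of all 10625 genes. It was above 0 in 27 of 30 members, with a median of 0.16, and in 66.1% of all genes, with a median of 0.06. The largest were Scd2 (0.64), where the M1 response carried the difference, and Hsd17b7 (0.39). Sterol enzymes had a median of 0.18 and fatty acid enzymes of 0.15. The 4 arrays leave no degree of freedom to test this contrast. In limma, an effect of IL-1α shared by M1 and M2 passed the threshold in 0 of 30 members and 0 of 10625 genes, and 646 genes, 3 of them members, had an unadjusted p under 0.05. Without the variance trend limma again called 0 genes (580 at an unadjusted p under 0.05), and with robust variances 0 (585). The smallest limma adjusted p of a member was 0.52, for Stard4 (0.33 ± 0.09).

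**Figure D4:**
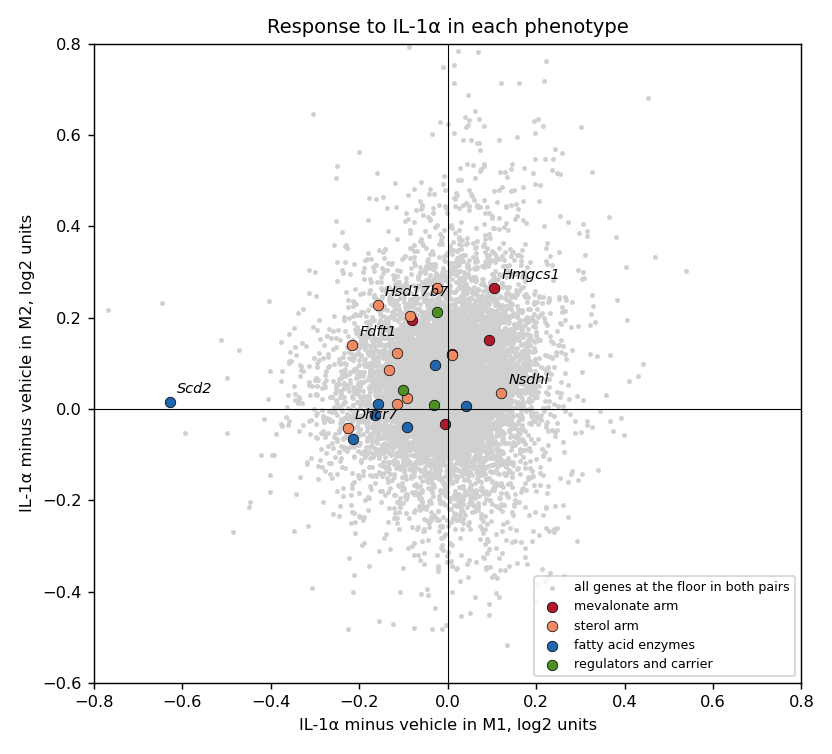
IL-1α minus vehicle in log2 units, in M1 (x axis) and in M2 (y axis), for the 26 members at the floor in both pairs (coloured by role) and for all 9671 such genes (grey, of which 47 lie beyond the axes). Members lie near the origin and mostly left of 0 in M1, and among members Scd2 alone lies far to the left.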

How the data were processed

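The authors deposited 1 log2 signal for each probe set and array; the submitters' processing notes name RMA and Affymetrix Expression Console, with versions and settings not given in the sources used here. RMA corrects background, quantile-normalises arrays and summarises probes, so overall shifts in RNA amount are removed and dim genes show shrunken differences. That the base is 2 was read from the values (3.09 to 14.47). Of 35556 probe sets, 21789 carried 1 gene in GEO's platform annotation, 1621 several and 12146 none; 21698 of the 21789 matched RefSeq (GRCm38.p6) by Entrez number. Probe sets without a single gene were not used, which removed Acsl3 among the members, and probe sets were averaged per gene. Acat2 was named by no probe set in that annotation. Array differences have no test. limma 3.58.1 (R 4.3.3; lmFit, eBayes with trend) was fitted to 10625 genes with Benjamini-Hochberg adjustment over all of them. The labels do not say that arrays are separate cultures, so p-values describe these arrays only, and their number limits the precision. Steps were tested on simulated data. The members and gene lists were chosen with earlier results of these data known. All measured members are named; of the other pathway genes, the 2 highest and 2 lowest per group with vehicle are named, and Scap and Insig2 were added after their values were seen. Alternatives covered the fold, the floor, scaling, probe set choice and variance prior.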

Additional observations from a re-analysis of the deposited data

Results flagged for a closer look

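For several sterol enzymes the array with IL-1α read below vehicle in M1 and above it in M2, with both differences at least as large as the standard deviation over all genes in the M1 pair (0.111). That standard deviation was 0.177 in the M2 pair, and of the 3 genes named next, Hsd17b7 alone had an M2 response above it. The difference of responses, M2 minus M1, was 0.39 for Hsd17b7 (-0.16 in M1 and 0.23 in M2), 0.36 for Fdft1 (-0.22 and 0.14) and 0.24 for Lss (-0.11 and 0.12). The median response also had opposite signs in the phenotypes, with a gap of 0.20 over sterol enzymes (-0.08 in M1 and 0.12 in M2) and of 0.17 over fatty acid enzymes (-0.16 and 0.01). The M2 median of the fatty acid enzymes was -0.052 after cyclic loess and -0.046 after quantile normalization, the same sign as in M1. Of 26 members at the floor in both pairs, 15 were below 0 in M1 and above 0 in M2, and 0 the other way. Of all 9671 such genes, 34.7% were below 0 in M1 and above 0 in M2, and 1342 genes the other way. These counts were not repeated under the other scalings of the arrays. Each phenotype has 1 array per treatment, so the difference was not tested.

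A signal also appeared in a probe set outside the comparisons, the one annotated to both Utp14b and Acsl3. It read 6.87 and 7.05 in M1 and 9.40 and 9.52 in M2, a vehicle difference of 2.54, and which of the genes it measured cannot be told apart here. ACSL3 activates fatty acids for lipid droplets. The other shared probe set of a member, annotated to Srebf2 and 3 further genes, read 10.18 and 10.24 in M1 and 10.24 and 10.28 in M2, a vehicle difference of 0.05, where the probe set with Srebf2 alone gave 1.34.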

How the results depend on the processing

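The counts of members past 2-fold stayed between 20 and 28 with vehicle and between 23 and 28 with IL-1α over the alternatives, and 27 to 31 members were called in limma, where the number measured also changed. Pmvk alone lost its limma call, under no floor, cyclic loess, quantile normalization, median centring and the brightest probe set. The gap between sterol and fatty acid enzymes went from 0.28 to -0.036 with the floor at the 75th percentile and to -0.036 with probe sets naming several genes, since fewer or further genes entered. At 1.5-fold, all genes higher and lower in M2 numbered 1477 and 1400 with vehicle (737 and 716 at 2-fold) and 1740 and 1197 with IL-1α (854 and 635). At that fold the IL-1α response gave 2 higher and 4 lower genes in M1 (0 and 0 at 2-fold), 1 of them a member (Scd2), and 90 higher in M2 (36), and the difference of responses 108 higher and 15 lower (34 and 0), 1 of them a member (Scd2). With the floor at the 75th percentile, genes higher in M2 were 429 with vehicle, 533 with IL-1α and 2230 in limma (3526), those higher with IL-1α in M2 were 19, and limma called 1 gene for IL-1α. With no floor, 1 gene was lower in M1 and 4 in the difference of responses, and with median centring limma called 11 genes higher with IL-1α and 0 members; the cause was not tested. No paired analysis was possible because each group holds 1 array. The 4 members under the floor in M1 have uncertain folds.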
